A study of Mus musculus with 30 samples.

Results

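The regions described here are the stretches of chromatin whose accessibility changed when tail-tendon fibroblasts were treated with blebbistatin and for which the authors' deposited table records no match to its TEAD-like motif. They were chosen by 1 criterion, an empty entry in the column that gives the positions of a de novo motif whose best-guess name is TEAD. Of the 970 sites in the list of blebbistatin against DMSO, 367 had an empty entry and 603 had at least 1 match. Among the 367, 350 were less accessible with blebbistatin and 17 were more accessible.

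The cells were primary fibroblasts from mouse tail tendon, with the genotype given as wildtype for every library and 0.1% serum in all treatment media. ATAC-seq, which marks open chromatin, and poly(A) RNA-seq were each run with 3 libraries in the solvent DMSO, 3 with blebbistatin at 10 µM and 3 with Y27632 at 30 µM. In a further experiment, 12 libraries of genomic DNA were made from 4 groups of 3, which received neither drug, 10 µM blebbistatin alone, doxycycline alone at 10 ng/mL, or both drugs. The labels do not say what doxycycline induced, which assay these 12 libraries used, how long the treatments lasted, or whether replicates came from separate animals, so p-values measure only the spread between these libraries.

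TEAD proteins are DNA-binding factors that recruit YAP and TAZ, coactivators that enter the nucleus when cells spread, pull on their matrix and build actin stress fibres. Blebbistatin blocks the motor of non-muscle myosin II and so lowers the tension a fibroblast can generate, and Y27632 is a kinase inhibitor. Many enhancers that respond to YAP and TAZ carry TEAD sites next to sites of other factors such as AP-1, and a motif search of a fixed form can pass over weak or divergent sites.

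The letters of the motif show what an empty entry means. The column held 837 matches of 10 bases, of which 536 (64.0%) contained the TEAD core GGAATG, always at bases 2 to 7 of the match. The base before the core was A in 297 matches and T in 239, and never C or G. The base after the core was T in 300 and C in 236, and never A or G. The 2 most frequent matches are shown with the core in capitals, because they are the reference for the sequences of the unmatched sites that follow.
Match found 26 times: aGGAATGtgg
Match found 24 times: aGGAATGcag

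Sequence could be read for 5 of the 367 sites, those that overlap a promoter window of the RefSeq table (GRCm38.p6, 250 bases before to 50 after a gene's start). In 3 of the 5 the overlap held GGAATG on either strand, with 4 cores in all. The promoter of Ankrd1, a cardiac ankyrin repeat protein that is a standard YAP/TAZ target, lies wholly inside its site. It is shown because it has 2 cores although its motif entry is empty, at chr19:36119845-36120094 on the minus strand, with the cores in capitals.
Ankrd1 promoter: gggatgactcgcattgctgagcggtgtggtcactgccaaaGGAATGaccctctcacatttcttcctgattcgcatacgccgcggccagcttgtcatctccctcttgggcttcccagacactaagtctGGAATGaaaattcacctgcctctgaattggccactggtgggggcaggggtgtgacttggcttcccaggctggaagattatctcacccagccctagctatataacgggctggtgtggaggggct
The part of the Gm13269 promoter that lies in a site annotated to Gm13315 holds 1 core on the other strand, and so reads CATTCC here, at chr2:14764488-14764582 on the minus strand. Both are predicted genes.
Gm13269 promoter: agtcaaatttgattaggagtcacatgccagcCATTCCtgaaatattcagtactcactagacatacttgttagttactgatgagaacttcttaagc
For Cav3, the muscle caveolin, only the upstream part of the promoter within the site is shown, at chr6:112459376-112459504 on the plus strand. That part holds no core, although the site is among the 3 with a core, which here lies after the start.
Cav3 promoter: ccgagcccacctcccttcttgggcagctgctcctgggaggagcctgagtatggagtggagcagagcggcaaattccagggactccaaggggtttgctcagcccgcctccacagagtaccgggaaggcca

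The cores with their flanks were aGGAATGacc and tGGAATGaaa at Ankrd1 and aGGAATGgct at Gm13269. One more core, gGGAATGcca, lay in the 50 bases after the start of Cav3. Each of the 4 had a flanking base that no match of the column had in that position, and none of the 4 runs of 10 bases occurred among the matches. An empty entry therefore does not mean that the letters GGAATG are absent. Over all 32851 promoters of the table, 12.6% held GGAATG on either strand in the 250 bases before the start. The overlaps of sites counted above also took in the 50 bases after the start, where the Cav3 core lay. Some of them held only part of the window, so the 12.6% is not a like measure. The upstream part of Cav3 also held 1 E-box CAGCTG, a palindrome that 13.0% of all promoters held. The AP-1 motif TGANTCA, the CRE TGACGTCA, the RUNX motif TGTGGTT and the CArG box had no match in the 3 sequences shown, with either strand searched, and were present in 6.75%, 1.55%, 4.4% and 1.47% of all promoters. The other 362 sites were not read, and the share of them with a core was not analysed here.

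Across the list, sites without the motif were narrower and had a lower read level than sites with it, while their folds were similar. All site values are the authors' group means, folds and FDR, with no value per library, so no SD can be given, although each group had 3 libraries, and no test of sites was made. The median width was 229 bp without the motif and 268 bp with it. The median log2 level in DMSO was 6.20 against 6.53. This level is a mean of normalised reads per site, not per base, so the width of a site can bear on it. How far width accounts for differences in level was not tested. The median log2 fold of the lower sites was -1.57, with a range from -2.79 to -1.28, against -1.61 for the sites with the motif. Since the list holds only sites past an FDR of 0.05, the folds are a description of how they were selected. They made up 1.54% of the 62846 sites that the authors tested, 1.52% lower and 0.0271% higher.

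The 970 sites were ordered by width and divided into 4 bins of 242 or 243 sites. The share with an empty entry was 52.7% in the narrowest bin, then 39.7%, 33.9% and, in the widest, 25.1%. In the same way by the level in DMSO, the share went from 53.5% in the lowest bin through 38.8% and 35.1% to 23.9% in the highest. All bins include the 17 sites that were higher with blebbistatin, whose entries were all empty. Their median log2 level in DMSO was 5.05, so most of them fall in the lowest bin by level. Wider sites have more bases in which a match can fall, and how far width alone sets the share was not tested. By GC content the share was 36.6%, 33.5%, 33.9% and 47.3% from the lowest to the highest bin. By the authors' rank on p-value it was 29.6% in the first bin and 36.0%, 45.5% and 40.3% in the next ones, and 25.6% of the sites without the motif had an FDR of at most 0.01 against 34.3% of those with it.

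**Figure D1:**
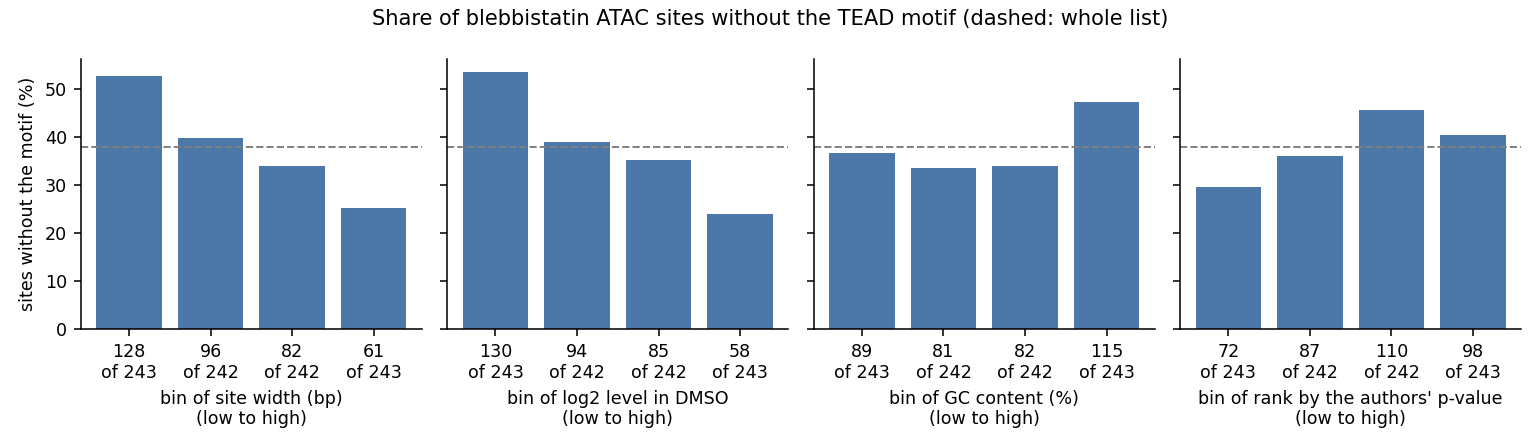
Bars give the percentage of sites with no TEAD motif match in each of 4 bins of the 970 sites, ordered by width in bp, log2 level in DMSO, GC content in percent and rank by p-value, with counts under each bar and the whole-list share dashed. The share goes from 52.7% in the narrowest to 25.1% in the widest bin.

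Most of the 367 sites lay away from promoters. In the authors' annotation 207 (56.4%) were intergenic and 141 (38.4%) intronic, 8 lay at transcript ends (TTS), 5 in 3′ UTRs, 5 at promoters and 1 in an exon. The median distance to the nearest transcription start was 35470 bp, against 46060 bp for sites with the motif, and 20.2% against 15.4% lay within 10 kb. Repeats were the annotation of 70 sites (19.1%), close to the 19.7% of the sites with the motif, with 30 in LTR elements, 21 in LINEs and 12 in SINEs. The sites were spread over all autosomes and X, from 31 on chromosome 1 to 6 on X.

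Some unmatched sites adjoined matched ones. Of the 350 lower sites, 23 (6.57%) had a site with the motif within 1 kb and 80 (22.9%) within 100 kb, and 34 (9.71%) had another unmatched site within 1 kb. Of the 603 sites with the motif, 22 (3.65%) had another matched site within 1 kb and 115 (19.1%) within 100 kb. An unmatched site lay within 1 kb of 24 (3.98%) of them. The unmatched site near Timp2 lay 42 bp from a site with the motif, that of Ccn2 57 bp and that of Thbs1 564 bp. The rule counts such a site as unmatched although a site with a match lies nearby. These distances run between the edges of sites, and the distance to the match itself was not analysed here.

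The surroundings of Amotl2 held 10 sites within 100 kb of its start, 6 without the motif and 4 with it, and every one was lower with blebbistatin. Amotl2 encodes an angiomotin-like protein that binds YAP and holds it out of the nucleus, and its gene is itself a YAP/TAZ target. Amotl2 spans chr9:102717091-102733418 in GRCm38.p6. The authors' annotation assigned 4 of the unmatched sites to the neighbouring predicted gene Gm5627, which had the most unmatched sites of any gene. Their log2 folds were -2.05 at 16.8 kb from the Amotl2 start, -1.51 at 20.5 kb, -2.05 at 42.7 kb and -1.45 at 62.2 kb. The first of these lay 91 bp from the widest site of the list, a region of 1500 bp with the motif and a log2 fold of -2.26. The unmatched site annotated to Amotl2 itself, 27.1 kb upstream, had a log2 fold of -1.41 and an FDR of 0.0345.

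**Figure D2:**
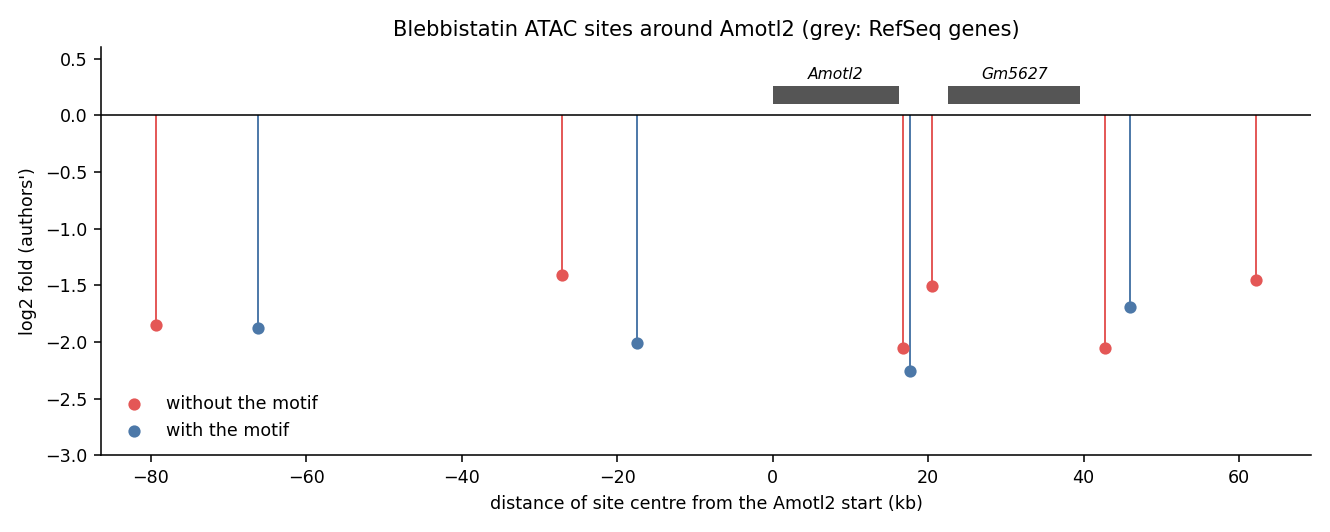
Each stem is a blebbistatin ATAC site, placed by the distance of its centre from the Amotl2 start in kb, with the authors' log2 fold on the y axis, red without and blue with the motif; grey boxes are genes. All 10 stems point down, from -1.41 to -2.26.

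The strongest losses among unmatched sites were annotated to a varied set of genes. The lowest log2 fold was -2.79 at chr9:25219025-25219118, an intergenic site annotated to Septin7, a cytoskeletal GTPase, with a log2 level of 5.27 in DMSO and 2.48 with blebbistatin. Next was a site 37406 bp upstream of the start of Mtmr2, a lipid phosphatase, with a log2 fold of -2.70. The site 17353 bp from the start of Thbs1, at chr2:118129167-118129290, had a log2 fold of -2.57 and an FDR of 0.000242. It was followed by an intron site of Cyyr1 at -2.56, an intron site of the progesterone receptor gene Pgr at -2.42, and intergenic sites annotated to Gm11351 at -2.40, Fcamr at -2.24, Ap1s1 at -2.19, the beta-adrenergic receptor gene Adrb3 at -2.15 and 1700018B24Rik at -2.13. The lowest FDR, 0.000212, was shared by the Gm11351 site and an intron site of Fndc1, with a log2 fold of -2.11. The sites of Thbs1, Pgr and Mtmr2 came next in FDR.

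The promoter, exon and transcript-end sites were few and moderate. The promoter sites had log2 folds of -1.80 at Nrf1, a regulator of nuclear genes for mitochondria, -1.64 at the pseudogene Sprr2j-ps, -1.47 at Gm15997, -1.44 at Ankrd1 and -1.28 at Cav3. The exon site, 973 bp into Siglecg, had a log2 fold of -1.42. The transcript-end sites included those annotated to Adipor2 (-2.12), Gm5627 (-2.05), Mesd (-1.80), Lingo4 (-1.65), Lat2 (-1.48), Mir5118 (-1.41) and Slc45a3 (-1.41). The collagen gene Col28a1 had 3 intron sites, at -1.92, -1.69 and -1.48.

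All 17 sites of the list that were more accessible with blebbistatin had an empty motif entry, and 0 of the 603 sites with a match were higher. Whether the motif search covered these 17 sites is not stated. Their log2 folds ran from 1.33 to 1.76 with a median of 1.52. They started from a low level, with a median log2 of 5.05 in DMSO against 6.25 for the lower sites, and reached 6.58 with blebbistatin against 4.65. Sites listed for a rise tend to start low and sites listed for a fall to start high. The contrast in DMSO is therefore a description of how the sites were selected. The highest folds were 1.76 at a site annotated to Rtp1, 1.70 in an intron of Cdkal1, 1.64 near Lnx1, an E3 ubiquitin ligase gene, and 1.63 in an intron of 4930431F12Rik. A pair of sites near the pseudogene Tyms-ps had log2 folds of 1.61 and 1.33. The site 72545 bp upstream of Gadd45a, a stress-induced regulator of growth arrest, had 1.6, and the intron site of Adam12, a membrane metalloproteinase, had 1.51. The remaining ones were annotated to Fat3 (1.59), Sucnr1 (1.56), Dleu7 (1.52), 5730403I07Rik (1.45), Hmgn3 (1.45), AI427809 (1.42), Tbc1d1 (1.41), Prickle2 (1.40) and 1700060C16Rik (1.37).

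The doxycycline experiment, which shared no library with the first, recorded many of the unmatched sites again. Its lists are restricted to log2 folds of 1 or more in size at an FDR of at most 0.05. With blebbistatin alone against neither drug, 1.78% of 68975 tested sites were listed, 1.77% lower and 0.0174% higher. Of the 367 sites without the motif 101 (27.5%) overlapped that list by at least 1 bp, against 246 of 603 (40.8%) with the motif, and these were 8.29% and 20.3% of its 1231 sites. The 100 lower sites among the 101 were all lower there too, with a median log2 fold of -1.24 where the first experiment gave -1.595. The only higher site was that of Adam12, with 1.51 in the first experiment and 1.08 in the second. The lower sites found again were wider than the 250 not found, with a median of 246 bp against 216 bp, and had a higher level in DMSO, with a median log2 of 6.54 against 6.18.

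By the sum of both folds, the strongest repeated losses were at Gm11351 (-2.40 and -1.52), Cald1 (-2.11 and -1.81), Adrb3 (-2.15 and -1.54), Tpm4 (-1.96 and -1.66), Spef2 (-2.0 and -1.6) and Fndc1 (-2.11 and -1.48). Cald1 and Tpm4 encode caldesmon and a tropomyosin, both proteins of actin filaments.

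Those unmatched sites that were also in the list of doxycycline alone moved the opposite way there. That list held 9.36% of 81359 tested sites, 8.97% higher and 0.388% lower. It overlapped 110 of the 367 sites (30.0%), and 177 of 603 (29.4%) with the motif, which were 1.42% and 2.3% of its 7613 sites. All 108 overlapped sites that blebbistatin lowered were higher with doxycycline, with a median log2 fold of 1.23. The same held for sites with the motif, whose 178 overlapping pairs were all higher, and most of the list itself was higher. The other two, at Prickle2 (-1.28) and Sucnr1 (-1.0), were higher with blebbistatin and lower with doxycycline. Gains at sites named here were 1.70 at Lrrc75a, 1.6 at a region that covers both sites of Timp3, 1.34 at Pgr, 1.31 at Cyyr1 and 1.16 at the Ankrd1 promoter. In cells with doxycycline, blebbistatin lowered 79 of the 367 sites (21.5%), against 151 of 603 with the motif. Of all 72539 sites tested there 8.75% were listed, 8.73% lower and 0.0193% higher. The lists with and without doxycycline share libraries, so their folds are given side by side only. For the intron site of Fndc1 they were -1.48 for blebbistatin alone, 1.19 for doxycycline alone and -1.32 for blebbistatin with doxycycline.

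**Figure D3:**
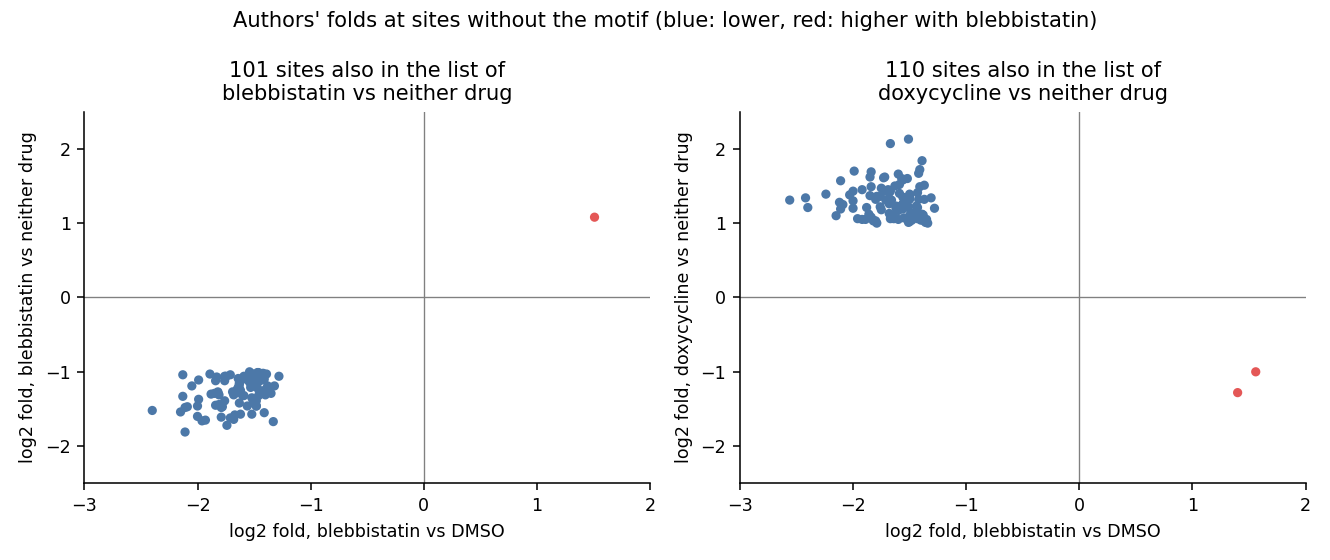
Points are sites without the motif that also appear in a list of the doxycycline experiment, with the log2 fold of blebbistatin against DMSO on the x axis and that of blebbistatin alone (left) or doxycycline alone (right) against neither drug on the y axis. Points on the left panel keep their sign and points on the right panel change it.

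The Y27632 list was far shorter, with 0.335% of 61804 tested sites (0.285% lower, 0.0502% higher), and used the same DMSO libraries, so its folds are only set beside those of blebbistatin. The largest Y27632 log2 folds were -2.12 in an intron of Rsl1d1 (blebbistatin -2.11), -2.04 near Grm8 (-1.45), -1.88 in an intron of Scnn1g (-2.03), -1.86 at Mtmr2 (-2.70) and -1.79 at Adipor2 (-2.12). The higher sites included those of 4930431F12Rik at 1.67, Dleu7 at 1.63 and Sucnr1 at 1.58.

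RNA levels of the annotated genes were compared next. The 367 sites were annotated to 332 gene symbols, of which 326 were in the RNA table and 224 were expressed enough to be tested, at a mean of 10 or more normalised counts per library. Reads in genes ranged from 23375386 to 37061737 per library. With blebbistatin, 162 of the 224 genes (72.3%) passed limma's test at an adjusted p under 0.05, against 53.0% of the 14882 genes tested. Of these, 119 (53.1%) were lower, against 26.9% of all genes, and 43 (19.2%) higher, against 26.1%. The median log2 change was -0.22, and 0.00 over all genes. These genes were also more highly expressed, with a median mean count of 917 against 565. Whether expression level bears on the share that passed was not tested. The nearest start need not be the gene a site acts on.

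Genes of lower sites and genes of higher sites differed in direction. Of 215 tested genes with lower sites, 119 fell and 36 rose in limma's test, with a median log2 change of -0.24. Of 9 tested genes with higher sites, 7 rose and 0 fell, and the median was 0.47. Of 51 tested genes annotated to both a matched and an unmatched site, 35 fell and 3 rose. Among the 173 tested genes with only unmatched sites 84 fell and 40 rose. The 353 tested genes with a matched site, which include the 51 with both kinds, had 199 that fell and 60 that rose. With Y27632, 125 of 223 genes (56.1%) passed, against 35.9% of 14833, with 84 lower, against 17.8% of all genes, and 41 higher, against 18.1%. The median log2 change was -0.08.

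**Figure D4:**
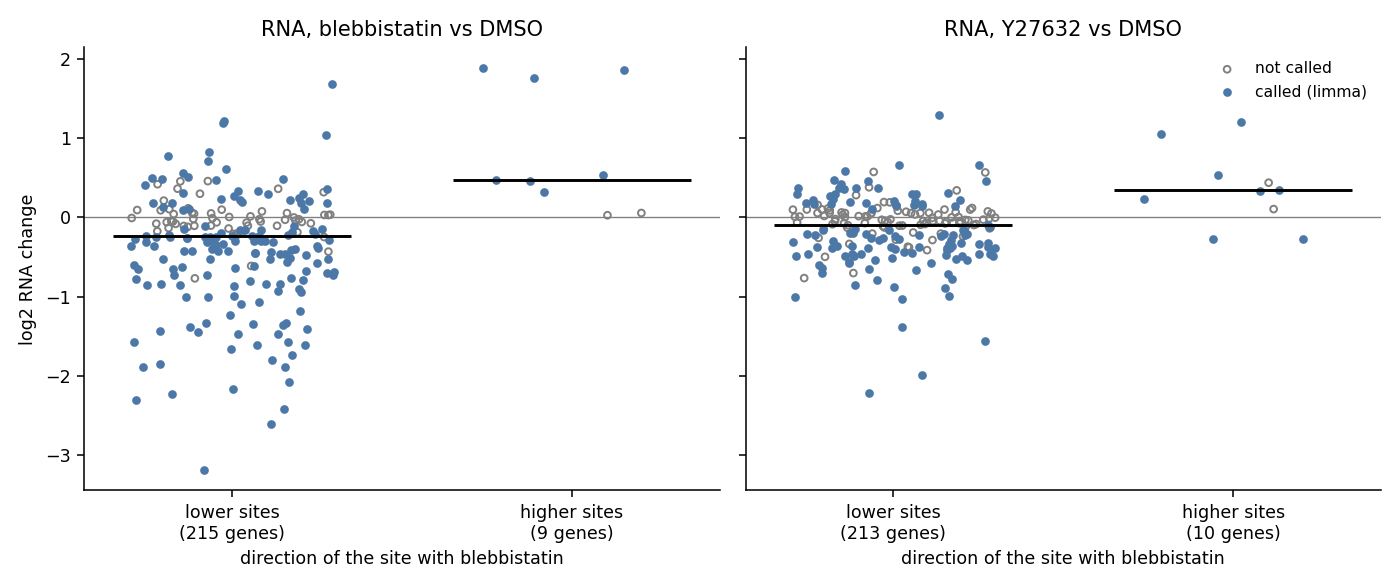
Each point is a gene annotated to a site without the motif, placed by the direction of its site with blebbistatin, with the log2 RNA change on the y axis, filled if called by limma; black lines are medians. With blebbistatin the median is -0.24 for genes of lower sites and 0.47 for genes of higher sites.

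Among 25 well-known YAP/TAZ targets, 5 had an unmatched site, namely Thbs1, Amotl2, Ccn2, Ankrd1 and Crim1, and 8 sites of these targets had the motif. Over the 25, 19 fell and 4 rose with blebbistatin and 14 fell and 5 rose with Y27632 in limma's test, with median log2 changes of -0.74 and -0.26. For this list and those that follow, the shares over all genes tested were 26.9% lower and 26.1% higher with blebbistatin and 17.8% lower and 18.1% higher with Y27632, and the lists were chosen with earlier results of these data known.

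Thbs1 encodes thrombospondin-1, a matrix glycoprotein that can activate latent TGF-beta. Its normalised counts were 246900, 265100 and 251500 in DMSO and 46600, 53700 and 54290 with blebbistatin. The groups were far apart, and limma gave a log2 change of -2.31 (SE 0.05, n = 3 per group, adjusted p = 1.153e-11). In the Y27632 table the DMSO libraries were 256700, 275200 and 261400 and the treated ones 197100, 187000 and 215400, a log2 change of -0.41 (limma adjusted p = 4.148e-05).

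Amotl2 was tightly grouped, at 21420, 21640 and 21420 in DMSO against 4321, 4822 and 4652 with blebbistatin. Its log2 change was -2.23 (SE 0.04, limma adjusted p = 1.595e-12), and -0.49 with Y27632 (SE 0.03, limma adjusted p = 3.472e-08). Ccn2, the connective tissue growth factor, is listed as Ctgf in the RNA table. It went from 3136, 3400 and 3823 in DMSO to 933.8, 1238 and 1252 with blebbistatin. It fell by 1.604 on the log2 scale with blebbistatin (SE 0.10, limma adjusted p = 4.521e-08), while Y27632 gave -0.11 (limma adjusted p = 0.267), which did not pass.

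Ankrd1, whose promoter was shown above, had low counts of 214.5, 216.2 and 240.1 in DMSO. With blebbistatin they were 65.44, 90.44 and 108.4, all below the DMSO libraries, and the log2 change was -1.36 (SE 0.16, limma adjusted p = 1.416e-05). With Y27632 it fell by 0.57 (limma adjusted p = 0.000381). Crim1, a transmembrane protein that binds BMPs, fell by 0.85 and 0.46 with blebbistatin and Y27632 (limma adjusted p = 2.494e-08 and 8.152e-06).

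Actin cytoskeleton genes formed the second group. Of 30 such genes and SRF targets, 4 had an unmatched site, Tpm4, Cald1, Actn1 and Actn4, and 1 site of the list had the motif. Of the 29 tested, 23 fell and 1 rose with blebbistatin and 23 fell and 0 rose with Y27632 in limma's test, beside 26.9% lower and 17.8% lower over all genes. Actn1, an actin crosslinker at focal adhesions, had 14130, 13920 and 14010 in DMSO against 7678, 7477 and 7400 with blebbistatin, a log2 change of -0.90 (SE 0.03, limma adjusted p = 1.444e-10). Tpm4 fell by 0.84 and Cald1 by 0.65 with blebbistatin (limma adjusted p = 2.097e-09 and 6.417e-09), and by 0.54 and 0.28 with Y27632. Actn4 changed least with blebbistatin, at -0.33, and had -0.43 with Y27632 (limma adjusted p = 1.317e-06 and 1.215e-07).

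Over the 41 matrix and adhesion genes, 18 fell and 14 rose with blebbistatin and 15 fell and 16 rose with Y27632 in limma's test, and 53.0% and 35.9% of all genes passed in either direction. Timp3, an inhibitor of metalloproteinases that is bound to the matrix, has 2 unmatched intron sites at -1.57 and -1.52, and also a matched site at -1.46. It fell from 11680, 11390 and 11680 to 4518, 4637 and 4607, a log2 change of -1.34 (SE 0.03, limma adjusted p = 7.099e-12). Timp2, a soluble inhibitor of the same family, has a site at -1.92, yet its RNA rose by 0.24 on the log2 scale with blebbistatin and by 0.29 with Y27632 (limma adjusted p = 1.763e-05 and 7.34e-06).

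Of 21 TGF-beta and BMP signalling genes, 12 fell and 5 rose with blebbistatin and 6 fell and 8 rose with Y27632 in limma's test. Over all genes, 26.9% were lower and 26.1% higher with blebbistatin, and 17.8% lower and 18.1% higher with Y27632. Bmp4 and Smad3 had an unmatched site, and Bmp4 also had a matched site with a log2 fold of -1.73. Bmp4, a secreted ligand, had 649.4, 607.8 and 650.2 in DMSO and 142.3, 155.4 and 153.4 with blebbistatin. It fell by 2.07 with blebbistatin and by 0.66 with Y27632 (limma adjusted p = 3.394e-10 and 1.609e-06). Smad3, which carries the TGF-beta signal into the nucleus, fell by 0.21 with blebbistatin and rose by 0.48 with Y27632. The AP-1 family and the MAPK feedback genes had 0 sites of either kind. Of 12 AP-1 genes tested, 3 fell and 5 rose with blebbistatin and 1 fell and 8 rose with Y27632. Of 17 MAPK feedback genes, 2 fell and 12 rose with blebbistatin and 0 fell and 17 rose with Y27632, against the same shares of all genes.

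**Figure D5:**
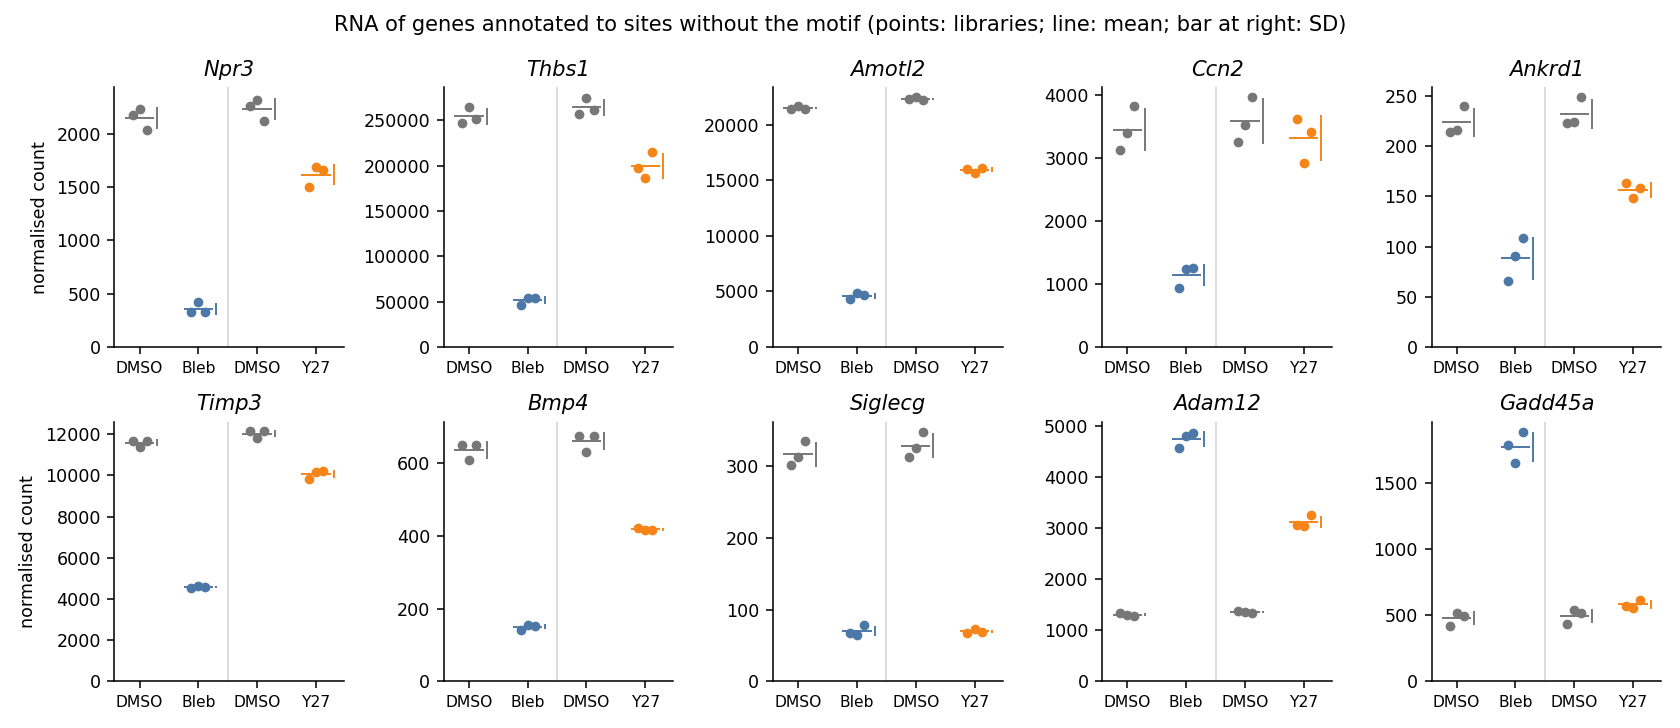
Normalised counts (y axis, from 0) of 10 genes annotated to sites without the motif, in DMSO and blebbistatin libraries of one table and DMSO and Y27632 libraries of the other, with the mean as a line and the SD as a bar. Blebbistatin libraries of Thbs1 lie between 46600 and 54290 against 246900 to 265100 in DMSO, while those of Adam12 lie above DMSO.

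Other unmatched-site genes were among the largest falls. Npr3, the clearance receptor of natriuretic peptides, had 2175, 2237 and 2042 in DMSO and 324.1, 421 and 324.3 with blebbistatin, a log2 change of -2.6 (SE 0.09, limma adjusted p = 2.21e-10). The log2 change was -1.89 for Sema3d, a secreted guidance protein, -1.74 for Ncald, a neuronal calcium sensor, and -1.85 for 5430403N17Rik (limma adjusted p = 1.616e-10, 2.892e-08 and 2.261e-08). With Y27632 the same genes gave -0.47 for Npr3, -0.48 for Sema3d, -0.99 for Ncald and -1.55 for 5430403N17Rik. The genes with the lowest Y27632 changes further included Slc1a6, a glutamate transporter (-0.9985), Sipa1l1, a Rap GTPase-activating protein (-0.88), Lrrc75a (-0.79), Chl1, an adhesion molecule (-0.64), Akap17b (-0.60) and Disp1, which releases hedgehog proteins (-0.58), and all passed limma's test.

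Siglecg, a sialic acid-binding lectin of blood cells, was low with both inhibitors. Its counts were 300.9, 313.3 and 334.3 in DMSO against 67.52, 64.95 and 78.1 with blebbistatin, and 67.65, 72.61 and 69.18 with Y27632. The log2 changes were -2.16 and -2.22 (limma adjusted p = 6.513e-09 and 4.998e-09). The summed level of 4 macrophage and blood markers (Ptprc, Adgre1, Cd68 and Csf1r) went the other way, from 1263 to 1448 in DMSO to 1781 to 2081 with blebbistatin and 1791 to 2088 with Y27632. Cd93, a receptor of endothelial and myeloid cells, rose by 0.56 and 0.59 (limma adjusted p = 0.00446 and 0.00124). The summed level of 3 endothelial markers (Pecam1, Cdh5 and Kdr) was 81.56 to 94.87 in DMSO, 104.9 to 116.7 with blebbistatin and 108.0 to 122.6 with Y27632. The part of the blood and endothelial markers in the Cd93 change was not tested. The Y27632 sums come from a table normalised separately, so their level is only set beside the others. In bulk RNA, more cells of a type and more RNA per cell cannot be told apart. The summed level of 9 tendon fibroblast markers was 590000 to 635200 in DMSO, 545300 to 600600 with blebbistatin and 630700 to 670000 with Y27632. Most of this sum came from Col1a1 and Col1a2, and the markers did not move together. Tnmd, a tendon cell marker, was at 843 to 993 in DMSO and 705.6 to 841.1 with blebbistatin, and Col1a1 was lower too. Pdgfra was at 8528 to 9055 in DMSO and 13080 to 13410 with blebbistatin, and Dcn at 55200 to 57630 and 66890 to 69880. Fmod and Mkx were also higher with blebbistatin, and the ranges of Scx, Col1a2 and Thbs4 overlapped. Of the skeletal muscle markers, Myod1 and Ckm were at 0 in DMSO and blebbistatin libraries and Des was at 5.957 to 8.825 and 5.194 to 8.222.

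With blebbistatin, the largest rises among the named genes were those of genes with higher sites. With Y27632 the largest was that of Arrdc3, whose site was lower with blebbistatin. Gadd45a had 421, 519.6 and 497.4 in DMSO and 1784, 1655 and 1884 with blebbistatin, a log2 change of 1.89 (SE 0.08, limma adjusted p = 8.98e-10). With Y27632 its change of 0.23 passed narrowly (limma adjusted p = 0.0356) and lost the call without DMSO replicate 1, Y27632 replicate 1 or Y27632 replicate 3. Adam12 had 1330, 1309 and 1280 in DMSO and 4567, 4794 and 4862 with blebbistatin, a log2 change of 1.86 (SE 0.04, limma adjusted p = 3.849e-12), and rose by 1.2 with Y27632 (limma adjusted p = 7.425e-10). AI427809 rose by 1.75 and 0.53 and Hmgn3, a nucleosome-binding protein, by 0.54 and 0.34. Lnx1, Prickle2 and Tbc1d1 were the other genes of higher sites that rose with blebbistatin, by 0.47, 0.46 and 0.32. Cdkal1 (0.06, adjusted p = 0.531) and Fat3 (0.03, adjusted p = 0.952) did not pass limma's test.

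Genes of lower sites also rose, 36 with blebbistatin and 35 with Y27632 in limma's test, and some with large changes are named here. With blebbistatin these were Scml4, a Polycomb-group-like gene, by 1.68, Arrdc3, an arrestin-domain adaptor, by 1.03, Ypel1 by 0.78, Sgpl1, the sphingosine-1-phosphate lyase, by 0.71, and Cyp39a1, an oxysterol hydroxylase, by 0.61. With Y27632 they were Arrdc3 by 1.29, Plpp3, a lipid phosphate phosphatase, by 0.66, Brinp1 by 0.66, Zfp608 by 0.46, Lrrc32, which displays latent TGF-beta, by 0.46 and Lat2 by 0.42. Each of these passed limma's test. Scml4 with Y27632 gave -0.09 (limma adjusted p = 0.518). Fndc1, whose site had the lowest FDR, gave 0.05 with blebbistatin (limma adjusted p = 0.366), so a site's loss was not always matched by a fall in RNA.

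The inhibitors were compared directly on the recovered reads of their 6 libraries with edgeR's quasi-likelihood test, at the doses used, which were not matched. Of the 224 annotated genes tested, 152 (67.9%) differed, against 52.2% of 15062 genes, with 105 lower, against 25.9% of all genes, and 47 higher, against 26.3%, in blebbistatin than in Y27632. These genes were picked through sites listed for blebbistatin, most of them lower, so the inhibitors did not enter the choice alike. How far this bears on the shares was not tested. Blebbistatin minus Y27632 on the log2 scale was -2.11 for Npr3, -1.89 for Thbs1, -1.73 for Amotl2, -1.47 for Ccn2 (Ctgf), and -0.75 for Ankrd1 (edgeR adjusted p from 2.384e-10 to 0.00186). It was 1.68 for Gadd45a and 0.67 for Adam12 (edgeR adjusted p = 3.619e-09 and 8.428e-08).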

How the data were processed

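The members and gene lists were chosen with earlier results of these data known. Per the submitters' processing notes, HISAT2, Picard, featureCounts, DESeq2, Bowtie2, SAMtools, MACS2, DiffBind and HOMER were used with the build mm10; roles and versions are not given in the sources used here. The authors deposited site lists with log2 group means, log2 folds, p-value and FDR columns, the GC fraction of each site and another value, the distance to the nearest start, per the file headers. Site coordinates are as deposited, and width was taken as end minus start, which made GC fraction times width whole for 970 of 970 sites. Rank, p-value and FDR together gave how many sites were tested. The doxycycline list's reference column was read as the group with neither drug, although headed otherwise: at 13 sites shared with the list of blebbistatin alone it differed from that group by a mean of -0.128 (SD 0.00439), and from the group in its header by 1.12 (SD 0.184).

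For each gene and library, the RNA tables hold a signal, which the authors deposited after dividing counts by a factor per library, as the values show. All values (100%, within 0.01 of a read) were whole multiples of 1 step, and the reads of the DMSO libraries recovered from both tables differed at 0 of 35972 shared genes. Genes with a mean of at least 10 were tested with limma 3.58.1 (trend) in R 4.3.3 on log2(normalised count + 1), which understates the change of low genes, with Benjamini-Hochberg adjustment over all genes. The inhibitors were compared with edgeR 4.0.16 on recovered reads, a test chosen after seeing the data. Scripts were tested on simulated data. Site genes were matched to RNA by symbol or RefSeq synonym. Named sites are all higher sites, the 10 lowest folds, the 5 lowest FDR values, promoter, exon and transcript-end sites, the 6 lowest fold sums of repeated sites, the 5 largest Y27632 folds and sites of listed genes. Named genes are those of named sites, those with 3 or more sites and, per inhibitor, the 10 highest and 10 lowest called genes with a mean of at least 100 and no overlap between groups. Some results that these rules would name are not reported here. Replicate numbers did not pair the libraries. Alternatives were pseudocount 5, no filter, a mean of at least 50, edgeR, DESeq2 1.42.0, a replicate block, each library left out, sites within 50 kb, genes with unmatched sites only, an overlap of 50% and an FDR of at most 0.01. Columns without a label numbered 0.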

Additional observations from a re-analysis of the deposited data

Results flagged for a closer look

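For 11 genes annotated to sites without the motif, the RNA passed limma's test with both inhibitors in opposite directions, and the inhibitors also differed from each other in edgeR's quasi-likelihood test on the libraries of the 2 treatments. These were 4.98% of the 221 annotated genes tested in all 3 comparisons, and 602 of all 14640 such genes (4.11%) met the same conditions. For 8 of them the RNA fell with blebbistatin and rose with Y27632. Blebbistatin minus Y27632, on the log2 scale, was -1.11 for Brinp1, -0.95 for Frmd6, a FERM-domain protein of the Hippo pathway, -0.81 for Lrrc32, -0.67 for Smad3, -0.67 for Tpbg, -0.51 for Otud4, -0.38 for Cops8 and -0.24 for Samd4b. The other 3 rose with blebbistatin and fell with Y27632, and the difference was 0.81 for Rnf144b, 0.75 for Prickle2 and 0.43 for Ttll7. The edgeR adjusted p-values ran from 1.549e-08 for Frmd6 to 0.000107 for Ttll7. Frmd6 had normalised counts of 8619, 8641 and 8506 in DMSO against 5420, 5356 and 5569 with blebbistatin, and of 8961, 8970 and 8839 against 11150, 10260 and 11540 with Y27632. The Y27632 call of Samd4b was lost under DESeq2, with the replicate block and without 4 of the 6 libraries in turn, and that of Ttll7 without DMSO replicate 2 or Y27632 replicate 3. The sites of all but Prickle2 were lower with blebbistatin.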

How the results depend on the processing

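The counts of called genes stayed within 1.5 times under pseudocount 5, both filters, edgeR, DESeq2 and genes without a matched site. With blebbistatin, edgeR called 163 genes and DESeq2 155 where limma called 162. With the replicate block limma called 159 with blebbistatin and 119 with Y27632; same-numbered libraries did not deviate together, with correlations from -0.095 to 0.022, so the numbers do not pair them. Leaving out 1 library gave 150 to 159 called genes with blebbistatin (110 to 116 lower, 39 to 44 higher) and 107 to 124 with Y27632 (74 to 82 lower, 33 to 42 higher). Restricted to genes within 50 kb of a site, the counts were 97 of 131 with blebbistatin (73 lower, 24 higher) and 75 of 132 with Y27632 (55 lower, 20 higher), because fewer genes enter. At a site FDR of at most 0.01, 33 of 94 sites overlapped the list of blebbistatin alone and 34 that of doxycycline alone, because fewer sites enter. Over the named genes, 1581 recomputed values kept their direction and call, 30 lost the call, 5 gained it and 6 changed sign. The sign turned only for values that were not called: leaving out 1 library gave -0.22 to 0.29 for Fat3 with blebbistatin, -0.0086 to 0.086 for Fndc1 with blebbistatin and -0.034 to 0.019 for Nrf1 with Y27632. The cause was not tested. The Lat2 call with blebbistatin was lost under 8 alternatives and that of Plpp3 was gained under 4. A search of whole sites for GGAATG was not run. Site values have no spread between libraries, which limits every statement on sites.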
